A study of Mus musculus with 2 samples.

Results

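Small nucleolar RNA genes are described here across 2 RNA-seq libraries of mouse distal forelimb buds. Members were chosen by their gene symbol, which starts with Snora, Snord or Scarna in either case followed by a digit, and were summed by symbol and chromosome, so that 313 of 23157 genes were members, from 364 of 64053 transcripts. By class, 173 are H/ACA genes (Snora), 115 are C/D genes (Snord) and 25 are Cajal body genes (Scarna). The gene family was selected on the read levels of these same 2 libraries, in which it had stood out as higher in one of them. The values are therefore given as a description, without a test of the family.

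The tissue was the distal forelimb at E12.5, from mice of the strain labelled C57Bl6CBAF1. The inversion sample is titled invDFL and the only wild-type sample wtFL, although the column of the wild-type library is named wtDFL. The control library is wild type, and the other carries the HoxD Inv(TpSB1-Itga6) allele, in which a segment of 2.4 Mb on chromosome 2 is inverted. This allele places the regulatory islands I and II at a distance from Hoxd13, and RNA-seq was used to look at transcription of genes along the same chromosome. Each library was a pool of 3 pairs of forelimbs, prepared from polyadenylated RNA with a stranded kit and read as 100-bp single ends. As there is 1 library per genotype, no value has a replicate error. Ratios are inversion over wild type after the authors' scaling, and their 95% intervals are exact Clopper-Pearson intervals that cover counting error only.

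Small nucleolar RNAs guide the chemical modification of other RNAs by base pairing. C/D box RNAs bind fibrillarin and direct ribose methylation, H/ACA box RNAs bind dyskerin and direct pseudouridylation, mostly on ribosomal RNA, and the small Cajal body RNAs direct both on spliceosomal RNAs. In mammals most are cut out of the introns of host genes, many of which encode ribosomal proteins or long non-coding RNAs, and the mature RNA carries no poly(A) tail, so that it is not the kind of RNA that a poly(A) selection is meant to recover.

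The sequences of 7 members are shown first, since they stand for the H/ACA and C/D classes, for the highest ratios and for the members that differed little. They are the transcripts of GENCODE M21 on GRCm38, read on the strand of the gene and found through the transcript identifiers of the deposited table. In the H/ACA members the capitals mark the letters ACA placed 3 bases before the 3′ end. In the C/D members they mark the C box TGATGA within the first 25 bases and the D box CTGA within the last 15 bases. Snora31 lies at chr14:75847905-75848034 (plus strand) in an intron of Tpt1 and SNORA8 at chr9:15314845-15314981 (plus) in Taf1d. SNORD12 is 1 gene of 2 copies on the plus strand, at chr2:167063473-167063565 and chr2:167064998-167065086, in the non-coding gene Zfas1. SNORD5 lies at chr9:15314074-15314144 (plus) in Taf1d, Snord83b at chr15:80078498-80078591 (minus) in Rpl3, Snord47 at chr1:161038082-161038158 (plus) in Gas5, and Snord104 at chr11:106500993-106501062 (plus) outside any host.
Snora31: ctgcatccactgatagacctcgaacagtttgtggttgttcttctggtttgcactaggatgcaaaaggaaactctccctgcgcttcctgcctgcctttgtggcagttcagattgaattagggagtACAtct
SNORA8: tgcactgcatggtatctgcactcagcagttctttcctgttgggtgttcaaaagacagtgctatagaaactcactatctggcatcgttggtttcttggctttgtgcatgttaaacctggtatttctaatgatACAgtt
SNORD12, first copy: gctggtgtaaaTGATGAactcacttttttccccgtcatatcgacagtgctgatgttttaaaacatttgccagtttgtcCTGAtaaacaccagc
SNORD12, second copy: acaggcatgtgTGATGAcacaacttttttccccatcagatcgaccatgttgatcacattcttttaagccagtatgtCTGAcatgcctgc
SNORD5: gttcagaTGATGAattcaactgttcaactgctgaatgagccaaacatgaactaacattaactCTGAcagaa
Snord83b: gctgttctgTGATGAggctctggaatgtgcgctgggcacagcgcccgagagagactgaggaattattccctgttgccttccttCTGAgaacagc
Snord47: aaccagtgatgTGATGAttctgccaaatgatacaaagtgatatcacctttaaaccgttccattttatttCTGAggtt
Snord104: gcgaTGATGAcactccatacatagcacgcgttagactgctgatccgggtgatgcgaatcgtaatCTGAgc

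These boxes followed the class names. Of the 353 member transcripts found in GENCODE M21, both the C and the D box were present in 73 of 132 C/D transcripts (55.3%) and in 1 of 197 H/ACA transcripts. The placed ACA was present in 115 of 197 H/ACA transcripts (58.4%) and in 3 of 132 C/D transcripts (2.27%). Among all 1558 small nucleolar and Cajal body RNA transcripts of the annotation, 19.96% had both C/D boxes and 19.3% had the ACA. Since only exact letters on the transcript strand were searched, a missing match says that these letters are not in these windows and nothing more.

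Reads were few. The members held 1055 of 9280660 reads in the wild-type library and 2650 of 9466154 in the inversion library. The median per member was 1 wild-type read and 5 inversion reads, and 188 of the 313 had fewer than 10 reads in both libraries together. No reads were found for 88 members in wild type and for 11 in the inversion, and the table lists a transcript only where at least 1 library had a read. A count of 0 allows up to 3 reads.

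The summed reads gave a ratio of 2.45 (2.28 to 2.63), whereas all 23157 genes together gave 0.995. More normalized reads in the inversion library were found for 274 of the 313 members (87.5%), and for 49.7% of all genes. Genes with a mean under 30 normalized reads, members among them, were higher in the inversion library in 58.3% of cases. Of the 311 members in that range, 272 were (87.5%). Level and RNA type were not separated here. The median log2 ratio over all 313 members, with a pseudocount of 1, was 1.01. Among the members lower in the inversion library, those with the most reads were close to equal (chosen after their values were seen): SNORD88 on chromosome 6 had 6 reads in both libraries, Scarna2 and SNORA40 on chromosome 1 had 5 in both, and SCARNA20 and SNORA46 had 5 and 4.

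**Figure D1:**
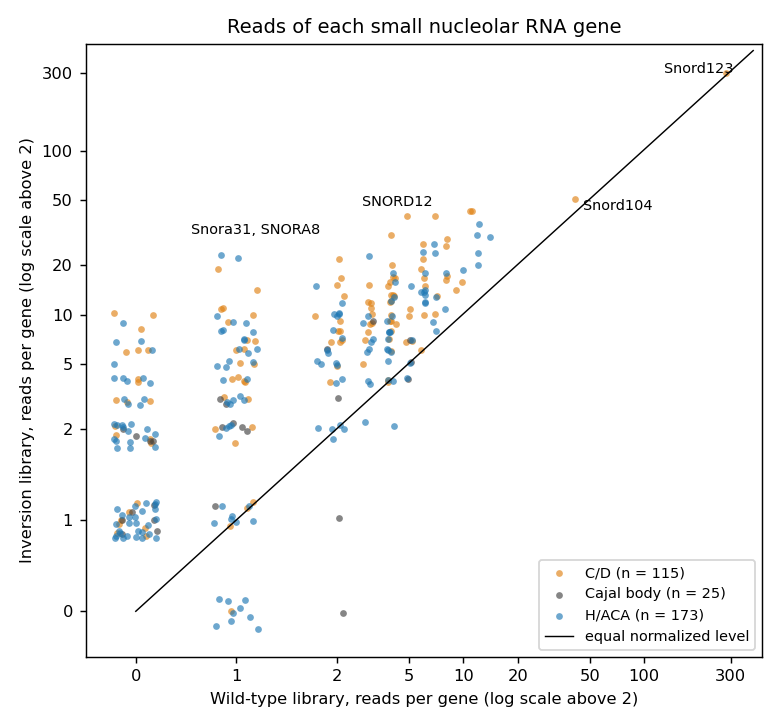
Reads of each of the 313 members in the wild-type library (x axis) and the inversion library (y axis), on axes that are linear up to 2 reads and logarithmic above. Points are coloured by class and spread at random by up to 0.22 reads so that equal counts can be told apart, and the line marks equal normalized levels. Most points, 274 of 313, lie above the line, and Snord123 and Snord104, the members with the most reads, lie next to it.

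A mean of at least 10 normalized reads was reached by 37 members, of which 26 had fewer than 10 in wild type and 0 had fewer than 10 in the inversion library. They passed through the library in which they were high, and their counts are given as a description. Of the 37, 28 were higher by 2-fold or more in the inversion library and 0 were lower by as much, with 3.99% and 0.483% of the 16756 genes that passed. All 28 had a mean under 30. In that range there were 35 members, and of 2256 genes there 15.7% were 2-fold or more higher and 2.22% lower by as much. The median log2 ratio of the 37 was 1.61, where that of all genes that passed was -0.02. An exact binomial test of each gene's reads, which compares the 2 libraries and not the genotypes, called 22 of the 37 higher and 0 lower at an adjusted p of 0.05, against 12.3% higher and 7.87% lower among all genes. Since the family was chosen on the same reads, nothing is read from these calls.

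By class, H/ACA members had 375 wild-type and 1084 inversion reads, a ratio of 2.82 (2.50 to 3.18). They were higher in the inversion library for 146 of 173 genes, and 56 had no reads in wild type against 9 in the inversion. C/D members had 647 and 1502 reads, a ratio of 2.26 (2.06 to 2.49), with 108 of 115 genes higher. The Cajal body members had 33 and 64 reads, a ratio of 1.89 (1.22 to 2.97), with 20 of 25 higher. No Cajal body member reached a mean of 10. Those with the most reads, chosen after their values were seen, were Scarna9 with 3 and 9 reads, Scarna10 with 5 and 7, and Scarna2 with 5 and 5. The interval of this class is wide enough to hold these ratios of the other classes, but not the C/D ratio of 3.23 without Snord123.

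The order of the H/ACA and C/D classes rested on 1 gene. Snord123 on chromosome 15 alone held 26.9% of the members' wild-type reads and 11.3% of their inversion reads, with 284 and 299 reads and a ratio of 1.03 (0.870 to 1.21). Without it the C/D ratio was 3.23 (2.87 to 3.64), above that of the H/ACA class but with overlapping intervals, and the ratio of all members was 2.97 (2.74 to 3.23). Of its 299 inversion reads, 291 belonged to 1 transcript that is not in GENCODE M21, which had 284 in wild type. The annotated small nucleolar RNA transcript of Snord123, in an intron of the non-coding gene Snhg18, had 0 wild-type and 8 inversion reads. Snord104 was second, with 41 and 51 reads and a ratio of 1.21 (0.788 to 1.88), and without both genes the C/D ratio was 3.49 (3.08 to 3.96).

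**Figure D2:**
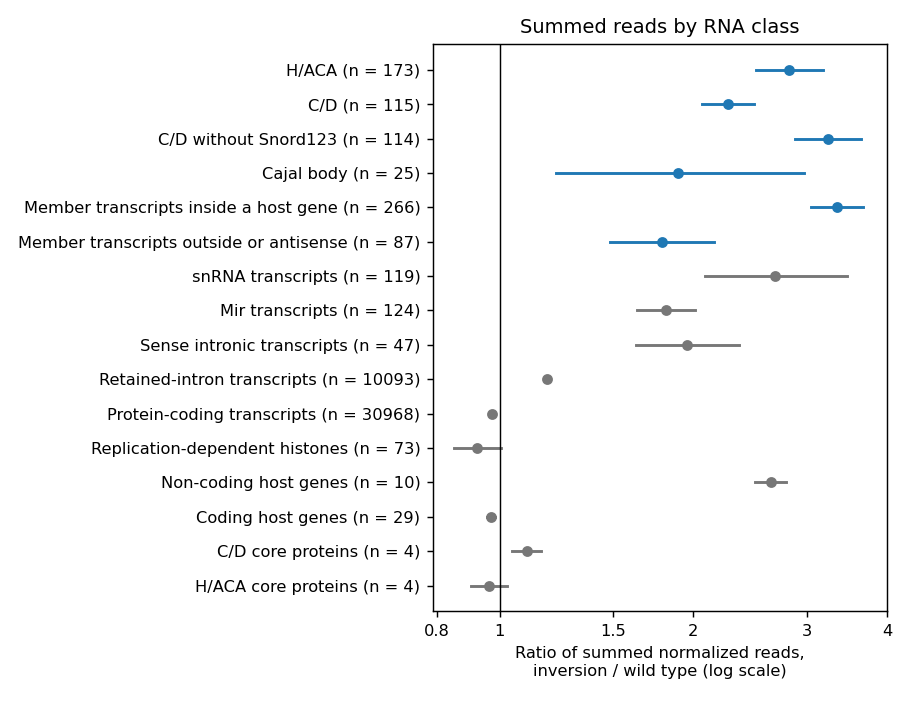
Ratio of summed normalized reads, inversion over wild type, on a log axis, for member groups (blue) and for other RNAs and gene lists (grey), with n the genes or transcripts summed. Points are ratios from 1 library each, bars are exact 95% intervals of counting error, and the vertical line marks equal levels. The bar of H/ACA members (2.50 to 3.18) overlaps that of C/D members once Snord123 is left out (2.87 to 3.64), and protein-coding transcripts sit at 0.975.

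Most of the other members with many reads were several times higher in the inversion library. SNORD50 on chromosome 9 had 11 wild-type and 43 inversion reads, a ratio of 3.81 (1.93 to 8.20). It sums 5 transcripts, of which 1 is in GENCODE M21, inside 9330159M07Rik. SNORD58, in the ribosomal protein gene Rpl17 on chromosome 18, also had 11 and 43 reads. SNORA32 on chromosome 9 had 12 and 36, a ratio of 2.93 (1.49 to 6.18). SNORD113 on chromosome 12 belongs to the tandem C/D genes of the imprinted Dlk1-Dio3 region, and 8 of its 9 transcripts there lie in the maternally expressed non-coding RNA Rian. Its reads were 7 and 40, a ratio of 5.57 (2.47 to 14.7). SNORA66, in Rpl5, had 12 and 31 reads (2.52, 1.26 to 5.39), and SNORD44, in Gas5, had 8 and 29 (3.54, 1.58 to 8.95).

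The highest ratios came from members that were nearly without reads in wild type. Snora31, shown above, had a single wild-type read and 23 inversion reads, a ratio of 22.4 (3.64 to 924). SNORA8 had 1 and 22 reads (21.5, 3.47 to 886), and SNORD5, from the same host, had 2 and 22 (10.7, 2.64 to 94.1). With 1 or 2 reads in wild type these ratios are known only within wide bounds, as the intervals show. SNORD12 had 5 and 40 reads, a ratio of 7.80 (3.08 to 25.3), and both printed copies were higher, the first with 2 and 8 reads and the second with 3 and 32. SNORD36, in Rpl7a, had 4 and 31 reads (7.56, 2.67 to 29.5). Snord83b had 1 and 19 reads (18.5, 2.95 to 770), and was chosen for its sequence after its values were seen.

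At the other end, 11 of the 37 members had an interval that held a ratio of 1. The lowest log2 ratios among them, beside Snord123 and Snord104, were those of Snord65 with 9 and 14 reads (1.52, 0.612 to 3.97), Snord49b with 10 and 16 (1.56, 0.666 to 3.85) and Snora28, in Eif5, with 12 and 20 (1.63, 0.757 to 3.65). Snord65 and Snord49b share the non-coding host 2410006H16Rik on chromosome 11 with Snord49a. The 2-fold threshold ran between Snora68, with 14 and 30 reads and a log2 ratio of 1.01, and SNORD113 on chromosome X, with 8 and 17 reads and a log2 ratio of 0.97. This copy of SNORD113 lies apart from the cluster on chromosome 12 and outside any host gene.

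The other 19 members with a mean of at least 10 had 3 to 12 wild-type and 15 to 27 inversion reads, with log2 ratios from 0.83 to 2.55. Their intervals lay above a ratio of 1 in 14 cases. SNORA4 on chromosome 16 was at the top of them with 3 and 23 reads, and Snora7a on chromosome 6, in the ribosomal protein gene Rpl32, at the bottom with 10 and 19 (both chosen after their values were seen).

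**Figure D3:**
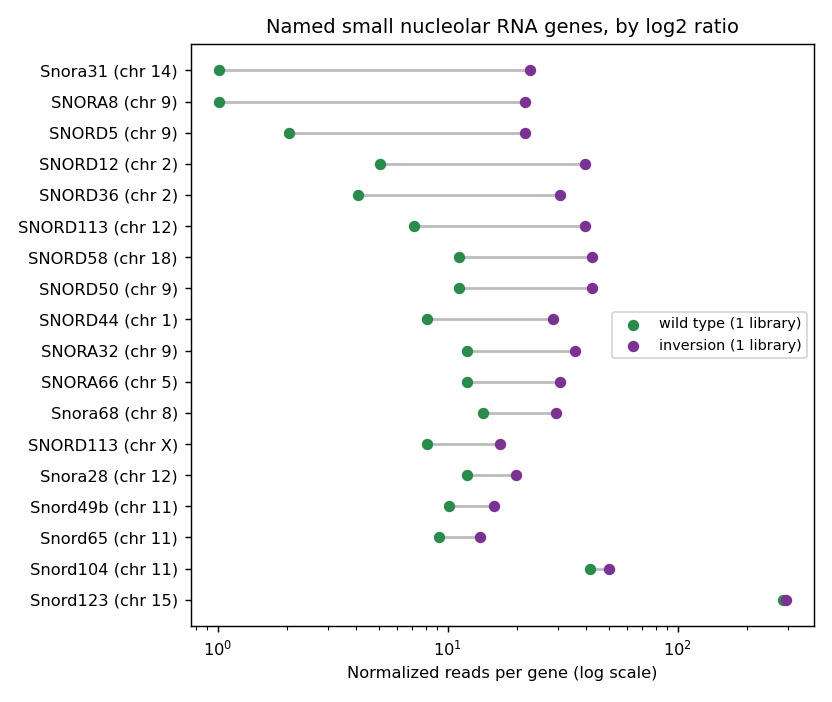
Normalized reads of 18 members on a log axis, in the wild-type library (green) and the inversion library (purple), 1 library each, ordered by log2 ratio with a pseudocount of 1. The wild-type points of the upper rows lie near 1 (Snora31 and SNORA8), and both points of Snord123 lie together near 290.

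Members were spread over 20 chromosomes, each with at least 20 member reads, and the summed ratio was above 1 in all 20, with an interval above 1 in all 20 as well. It ranged from 1.20 on chromosome 15, which holds Snord123, and 1.77 on chromosome 6 to 4.80 on chromosome 2, with a median of 2.94. Chromosome 2 carries the inversion, and its 20 members had 38 wild-type and 187 inversion reads (4.80, 3.37 to 6.99). Members on other chromosomes had a ratio of 2.36 (2.19 to 2.54), or 2.88 (2.65 to 3.14) without Snord123. Taken singly, 16 of the 19 other chromosomes had an interval that overlapped that of chromosome 2, and the remaining 3, chromosomes 6, 11 and 15, lay below it. Of the 2 named members on chromosome 2, SNORD36 lies in Rpl7a and SNORD12 in Zfas1. The distance of the chromosome 2 members from the inverted segment was not examined, and a link of their ratio to it was not tested.

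Part of the symbols recur in the genome. Of the 214 symbols, 42 (19.6%) were found on several chromosomes, and reads of near-identical copies may have been assigned to any of them. Members whose symbol is on 1 chromosome had a ratio of 2.31 (2.12 to 2.51), and those on several had 2.84 (2.47 to 3.26). The order of these groups also rested on Snord123, without which the first had 488 and 1528 reads (3.05, 2.76 to 3.39) and the intervals overlapped. For H/ACA genes, which hold 117 of the 141 recurring members, the same split gave 2.98 (2.48 to 3.602) and 2.71 (2.32 to 3.17), with overlapping intervals. The most dispersed symbol, SNORA17, had 21 transcripts on 13 chromosomes with 18 and 36 reads in all (1.95, 1.08 to 3.65). SNORA42 was found on 9 chromosomes with 3 and 39 reads (12.7, 4.03 to 64.1), and SNORA70, also on 9, had 11 and 24 (2.13, 1.0 to 4.81). These symbols were chosen for their number of chromosomes.

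The place of a member relative to other genes went with its ratio. Inside a host gene on the same strand lay 266 member transcripts, with 578 wild-type and 1979 inversion reads, a ratio of 3.34 (3.04 to 3.67), and 244 of them were higher. Outside genes or antisense to a gene lay 87, with 182 and 333 reads, a ratio of 1.78 (1.49 to 2.15), and 64 were higher. The intervals do not overlap, and neither do those of H/ACA transcripts alone, with 3.18 (2.77 to 3.67) inside and 1.96 (1.56 to 2.48) outside or antisense. For H/ACA transcripts with the placed ACA they did overlap, with 3.05 (2.59 to 3.60) inside and 2.04 (1.46 to 2.90) outside or antisense. Those without it had 3.57 (2.72 to 4.74) and 1.89 (1.37 to 2.62), which do not overlap. C/D transcripts had 3.56 (3.13 to 4.07) inside a host and 1.59 (1.14 to 2.23) elsewhere, where there were 7. Snord104 held most of the latter reads, and the other 6 had 18 and 45 (2.44, 1.38 to 4.48), which overlaps the value inside hosts. Without Snord104, all transcripts outside genes or antisense had 1.95 (1.59 to 2.40). Cajal body transcripts inside a host had 2.18 (1.28 to 3.84). The remaining 11 transcripts, not in GENCODE M21, had 295 and 338 reads. Of these, 284 and 291 came from Snord123, and the other 10 transcripts, among them 4 of SNORD50, had 11 and 47 (4.17, 2.13 to 8.91).

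Within hosts, the intervals of the kinds of host overlapped. The 49 transcripts in ribosomal protein genes had 171 and 575 reads (3.28, 2.76 to 3.91), and 49 of 49 were higher. Those in other protein-coding genes, 160 in number, had a ratio of 3.27 (2.85 to 3.76), and the 57 in non-coding hosts had 3.55 (2.94 to 4.32). Transcripts that lay wholly in introns had 3.07 (2.64 to 3.57), and those overlapping an exon of some transcript of the host had 3.52 (3.12 to 3.98). In the exonic class the overlapping transcript was most often annotated as retained intron, so that a read there can come from the small nucleolar RNA or from an unspliced host RNA. Intervals also overlapped between transcripts with and without the boxes. H/ACA transcripts had 2.84 (2.45 to 3.29) with the placed ACA and 2.78 (2.27 to 3.43) without it, and C/D transcripts had 3.20 (2.76 to 3.71) with both boxes and 3.31 (2.67 to 4.12) without. By length, the 123 C/D transcripts shorter than the 100-bp read had 3.19 (2.82 to 3.61), and the 191 H/ACA transcripts of at least 100 bases had 2.82 (2.50 to 3.18).

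The members were then compared with their own hosts. Of 155 hosts with reads, 34 had at least 20 reads and also at least 20 reads over their members. This cut sums both libraries, so that a host can pass through the inversion library, in which members were high. The counts that follow are given as a description. Members were higher in the inversion library in 34 of these 34, with an interval above 1 in 28. The member ratio exceeded that of the host in all 34 hosts, and the interval of the members lay wholly above that of the host in 11 (Taf1d, Rpsa, Eif4a2, Rpl13a, Rpl4, Zfas1, Gnl3, Rack1, Tpt1, Nop56 and Eef1b2). The median ratio was 3.72 for members and 1.52 for hosts. The hosts themselves were mixed: 9 had a ratio of at least 2, and 6 had one under 1, with intervals above 1 for 23 and below 1 for 3. Summed over all 155 hosts, 191720 and 193872 reads gave a ratio of 0.986 (0.980 to 0.993). Hosts with fewer member reads are not among the 34, and in some of them, such as Rpl23a, the member ratio lay below that of the host. Ribosomal protein genes have many processed pseudogenes, and how reads shared with them were assigned is not given in the sources used here, so that these host counts are uncertain.

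**Figure D4:**
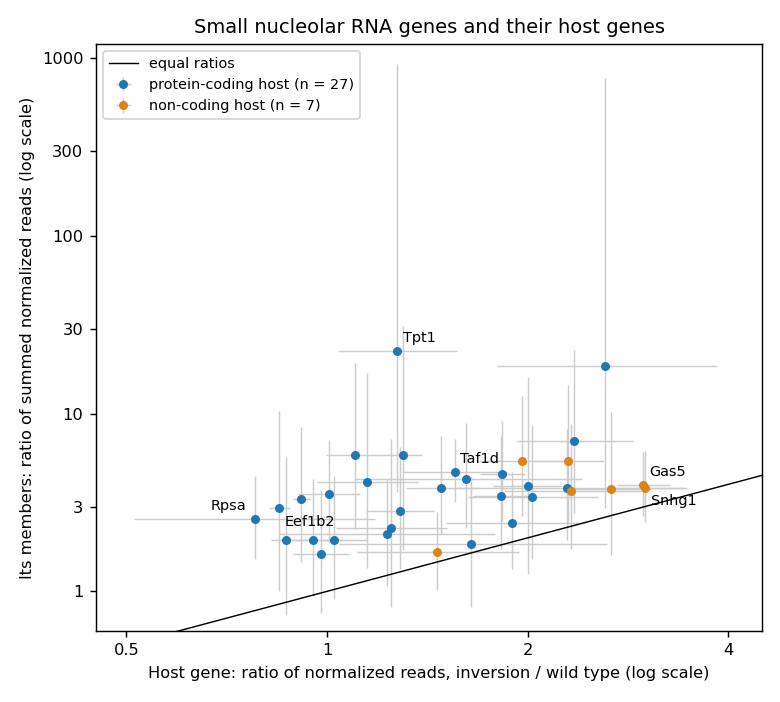
Ratio of each host gene (x axis) against the ratio of the summed reads of its members (y axis), inversion over wild type, on log axes, for the 34 hosts with at least 20 reads and at least 20 member reads. Points are single hosts, coloured by protein-coding or non-coding, bars are exact 95% intervals of counting error, and the line marks equal ratios. All 34 points lie above the line, from Rpsa, with a host ratio of 0.780, to Gas5 and Snhg1 on the right. The cut on member reads sums both libraries, so that hosts can pass through the library in which members were high.

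Taf1d, which encodes a subunit of the RNA polymerase I initiation factor SL1, carried 7 members between chr9:15312552 and 15316808. In order along the gene, SNORA40 had 1 wild-type and 8 inversion reads, SNORA18 had 6 and 24, SNORD5 had 2 and 22, SNORA8 had 1 and 22, SNORA1 had 2 and 15, SNORA32 had 12 and 36 and SNORA25 had 6 and 18. All 7 were higher, and together they gave 30 and 145 reads, a ratio of 4.71 (3.16 to 7.24). Taf1d itself had 199 and 317 reads, a ratio of 1.55 (1.30 to 1.86).

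Gas5, a non-coding RNA whose introns hold C/D genes, carried 9 members between chr1:161035394 and 161038383. SNORD44 and Snord47 led with 8 and 29 and with 6 and 27 reads, and the other 7 had 1 to 4 wild-type and 5 to 14 inversion reads. The 9 members summed to 31 and 126 reads (3.96, 2.66 to 6.08). Here the host was also higher, with 621 and 1898 reads and a ratio of 2.98 (2.72 to 3.27), so that the intervals of members and host overlap. Snhg1, a non-coding host on chromosome 19, was alike. Its 8 members, from SNORD25 to Snord22, each had 2 to 4 wild-type and 9 to 17 inversion reads, in all 26 and 102 (3.83, 2.47 to 6.13), and Snhg1 itself had 289 and 889 (3.0, 2.62 to 3.44).

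**Figure D5:**
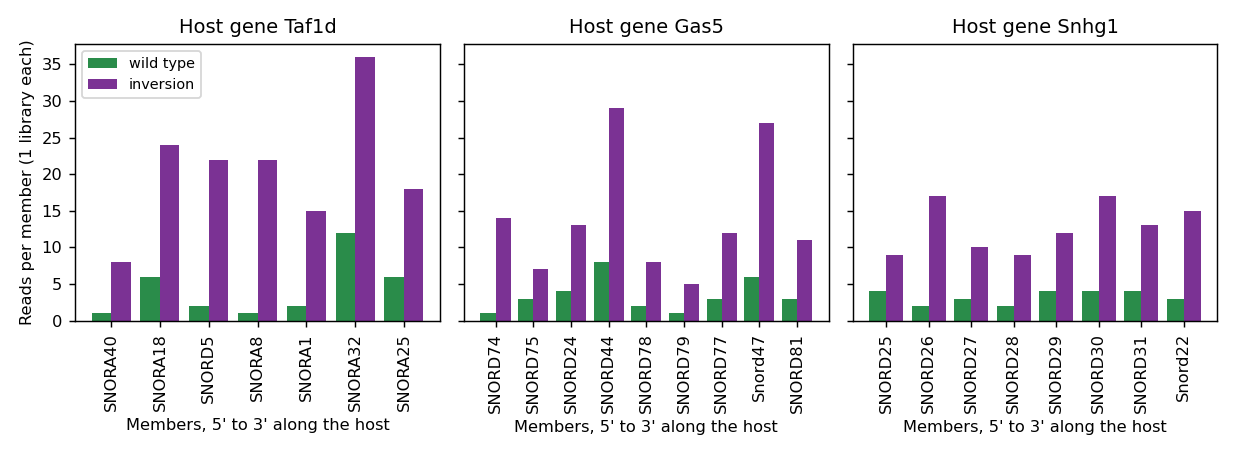
Reads of each member in the wild-type library (green) and the inversion library (purple), 1 library each, along 3 hosts with 7 to 9 members. Members are ordered from the 5′ to the 3′ end of the host, and the y axis counts reads and starts at 0. In all 24 members the purple bar is the taller one, from SNORD79 with 1 and 5 reads to SNORA32 with 12 and 36.

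Some hosts of the translation machinery showed the same order copy by copy. This was not so in all of them: in Eif3a, chosen after its values were seen, 1 of 2 member transcripts was higher. In Eif4a2, an RNA helicase of translation initiation, all 5 member transcripts overlapped an exon of some host transcript. They had 1 and 6 reads (Snord2), 5 and 16 and 2 and 8 (the copies of SNORA63), 2 and 8 (Snora81) and 3 and 23 (SNORA4). In all they summed to 13 and 61 (4.58, 2.49 to 9.08), and the host had 1016 and 1909 (1.83, 1.70 to 1.98). In Rpl13a, a protein of the large ribosomal subunit, 3 of the 4 members lay wholly in introns. Snord32a had 6 and 19 reads, Snord33 had 2 and 13, Snord34 had 2 and 10 and Snord35a had 4 and 13, a summed ratio of 3.83 (2.10 to 7.46) where the host had 1.48 (1.31 to 1.67). In Rps12, Snora33 had 4 and 18 reads, Snord100 had 4 and 20 and SNORD101 had 4 and 15, in all 4.31 (2.27 to 8.86) beside a host ratio of 1.62 (1.10 to 2.41). In Rpl4 the 5 transcripts of SNORD16, Snord16a and SNORD18 were each higher, with 13 and 47 reads in all, and the host had 681 and 703.

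In Rian the 8 transcripts of SNORD113 were each higher too, although 5 of them had 0 wild-type reads and 2 or 3 in the inversion library. The remaining 3 had 2 and 8, 1 and 4, and 4 and 16 reads, and the sum was 7 and 39 (5.43, 2.40 to 14.4). Rian had a ratio of 2.30 (2.03 to 2.61). Nop56, itself a protein of the C/D particle, hosts SNORA51 with 0 and 7 reads, SNORD56 with 1 and 7, Snord57 with 1 and 3 and Snord110 with 1 and 1.

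In a few hosts members and host lay on opposite sides of 1. Rpsa, a protein of the small ribosomal subunit, had 55 and 44 reads (0.780, 0.513 to 1.18), and its members SNORA62, SNORA73 and Snora62 had 21 and 55 (2.55, 1.52 to 4.45). Eef1b2, an elongation factor subunit, had 6165 and 5357 reads (0.847, 0.817 to 0.879), and SNORD51 and Snora41 inside it had 5 and 15 (2.93, 1.01 to 10.3). Rack1, a protein of the small ribosomal subunit, had 9528 and 8936 reads (0.915, 0.889 to 0.942), and its members 8 and 27 (3.29, 1.45 to 8.38). In Tpt1, with 170 and 222 reads (1.27, 1.04 to 1.56), Snora31 is the only member. In 2410006H16Rik members and host had nearby ratios, with 88 and 132 reads (1.46, 1.11 to 1.94) and members with 27 and 46 (1.66, 1.01 to 2.78).

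Host transcripts that cover a member were looked at separately for the 34 hosts, not all of them the hosts above, in which the table lists one. They had 9099 and 13525 reads, a ratio of 1.45 (1.41 to 1.49), while all transcripts of these hosts had 1.08 (1.06 to 1.09). Retained-intron transcripts as a type had 1.18 over 10093 transcripts, and sense intronic transcripts had 177 and 355 reads (1.96, 1.63 to 2.36). Whether a read was counted for both host and member, or whether strand was used in counting, is not given in the sources used here, so that reads of a member and of its unspliced host cannot be told apart.

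Of the listed genes that act on small nucleolar RNAs, none was at least 2-fold changed. The C/D core proteins, 4 of 5 found, summed to 2816 and 3180 reads (1.10, 1.05 to 1.16), with 2 higher and 2 lower. Nop56, which scaffolds the C/D particle and itself hosts members, had 1497 and 1992 (1.30, 1.21 to 1.39), and its partner Nop58 had 1136 and 1008 (0.865). The 4 H/ACA core proteins, with the pseudouridine synthase Dkc1 at 1080 and 1063 reads, gave 0.963 (0.904 to 1.03). Of the 14 genes of assembly and trafficking 3 were higher and 11 lower (0.920, 0.891 to 0.949). Of the processing genes, such as the exosome subunits, 13 of 14 were found, 5 were higher and 8 lower (0.962, 0.937 to 0.987). Their median log2 ratios can be set beside the -0.02 of all genes, with 0.14 for the C/D and -0.09 for the H/ACA core.

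Host genes were read as lists as well. Of the 12 non-coding hosts listed, 10 were found and 10 were higher in the inversion library, with 1714 and 4631 reads (2.64, 2.49 to 2.79). At least 2-fold higher and with a mean of at least 10 were Gas5, Snhg1, Snhg7 with 93 and 298 reads, Snhg11 with 7 and 55, Snhg12 with 104 and 248, and Rian with 358 and 843. The 29 coding hosts summed to 0.972 (0.958 to 0.986), where 21 were higher and 8 lower and the median log2 ratio was 0.35. Genes of high level such as Eif4g2, with 12061 and 11362 reads, weigh most in that sum. Among those at least 2-fold higher were Rpl7a (142 and 342 reads), Rpl3 (40 and 107), Rpl23a (10 and 28), Rpl12 (183 and 387) and Hspa8 (119 and 248).

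Several other types of short RNA were also higher, to unlike degrees. The 26 other transcripts typed as small nucleolar RNA had 60 and 207 reads (3.36, 2.51 to 4.56), and the 119 spliceosomal and related snRNA transcripts had 86 and 236 (2.68, 2.08 to 3.47). Transcripts typed as microRNA had 1212 and 1584 (1.27, 1.18 to 1.37). By symbol, 124 Mir transcripts had 572 and 1064 (1.81, 1.64 to 2.01), of which the long host RNA Mir17hg held 102 and 388, and without it the ratio was 1.40 (1.25 to 1.58). The rRNA transcripts had 32 and 68 (2.07, 1.34 to 3.26). The 73 replication-dependent histone genes, whose main transcripts also lack a poly(A) tail, had 1103 and 1045 (0.924, 0.848 to 1.01), and protein-coding transcripts had 0.975. Of 4 listed long RNAs kept in the nucleus 3 were found. These 3 were higher, Malat1 with 1365 and 2861 reads, Neat1 with 25 and 54, and the imprinted Meg3 with 370 and 1611 (4.25). The part of RNA quality, of the poly(A) selection or of nuclear RNA in the member ratios was not tested.

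Fixed markers of cell types were also read. They cannot tell a distal from a whole forelimb, since no proximal marker was among them. All 6 markers of limb mesenchyme had reads in both libraries (summed ratio 0.883), with 1 higher and 5 lower. Among them were Prrx1 with 3857 and 3913 reads and Hoxd13 with 2264 and 1522 (0.656). The paper reports reduced Hoxd13 transcripts in this inversion, so that neither Hoxd13 nor the sum that holds it can be read as tissue composition alone. The 4 muscle markers summed to 342 and 496 reads (1.41, 1.23 to 1.63), with 3 higher and 1 lower. Only Myog among them, with 155 and 268 reads (1.69, 1.38 to 2.07), had an interval above 1. The 4 of red cells summed to 15324 and 13081 (0.833) and the 4 of surface ectoderm to 4148 and 3662 (0.861). Of 4 neural markers 2 were found, Sox10 with 162 and 172 reads and Gad2 with 1 and 0. The part of tissue composition in the member ratios was not tested, and in such bulk samples more cells of a type and more RNA per cell cannot be told apart.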

How the data were processed

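Poly(A) RNA of E12.5 distal forelimbs was sequenced, 1 library per genotype. The authors mapped the reads to NCBIM37 (mm9; Bowtie2 in the submitters' notes) and deposited 1 signal column per library, namely reads per transcript divided by a size factor, with 0.5 written for no reads. The methods name RPKM, but the deposited signal is not divided by transcript length. Values above 0.5 came out as whole reads in 100% of cases (tolerance 0.1 read). The deposited fold change, log2 ratio, p-value and adjusted p-value columns were not used. Columns left unmapped numbered 0.

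Transcripts were summed by symbol, as spelled, and chromosome. The log2 ratio took a pseudocount of 1 and genes with a mean of at least 10. No genotype test was possible. An exact binomial test with Benjamini-Hochberg adjustment on the recovered reads called 2068 genes higher and 1318 lower of 16756. Positions, types and sequences came from GENCODE M21 (GRCm38), matched by transcript identifier, and no coordinate was converted. Named members are the 10 with the most reads, the 5 highest and 5 lowest log2 ratios and those beside the 2-fold threshold. Host genes, and listed genes that were 2-fold changed or had the highest means, were named too, and exceptions are marked. Genes of these lists and hosts that are not named are not reported here. Members and lists were chosen with earlier results of these data known. Alternatives were scaling, pseudocount, filter, transcript choice, thresholds and symbols on 1 chromosome. The scripts were tested on simulated data. Scripts ran in Python 3.11.15 with scipy 1.17.1, pandas 2.3.3, matplotlib 3.10.9 and numpy 2.4.6.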

Additional observations from a re-analysis of the deposited data

How the results depend on the processing

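No paired analysis was possible because each genotype has a single library, and no library could be left out. Scaling by the total or by the upper quartile left the summary values close to those reported. With symbols on 1 chromosome the median log2 ratio was 1.66 and 19 of 26 members were at least 2-fold higher. The class ratios were then 2.98 for H/ACA, 2.16 for C/D and 1.74 for Cajal body members. At a threshold of 1.5-fold 34 of 37 members were higher and 0 lower. The median log2 ratio of members (1.61) was 1.25 with a pseudocount of 5, 1.73 with 0.1, 1.01 without a filter, 1.41 with the transcript of highest mean and 0.038 above a mean of 100, where only Snord123 is left. The 28 of 37 members at least 2-fold higher became 157 of 313 without a filter, where many members have few reads. They became 8 of 37 at 4-fold and 0 of 1 above a mean of 100. With a pseudocount of 5 they were 24 of 37, and with the transcript of highest mean 22 of 31. The 0 lower became 11 of 313 without a filter. Shares of all genes were not computed for these alternative settings, so that nothing is read from their counts. The C/D ratio of 2.26 became 3.23 without Snord123, an alternative added after seeing the data, as were the other values without Snord123, Snord104 or Mir17hg, the binomial test and the members inside a host gene. Of 90 values of single members 89 kept their direction, and the log2 ratio of Snord123 turned to -0.00095 with its transcript of highest mean. Sizes depended on the pseudocount where reads were few: with 5 the log2 ratio of Snora31 went from 3.56 to 2.20, SNORA8 from 3.499 to 2.15 and SNORD5 from 2.91 to 1.93, and with 0.1 Snora31 rose to 4.36. SNORD113 on chromosome 12 went from 2.32 to 1.73 with 1 transcript. Few reads limit every ratio of a single member.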
